A study of Mus musculus with 8 samples.

Results

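A set of 69 protein-coding genes was silent in mouse embryonic stem cells before each exposure to ML-792 and was expressed at the end of each. A gene entered the set when it had under 0.5 CPM in all 4 libraries taken before an exposure and at least 1 CPM in all 4 libraries taken at its end. CPM is the reads of a gene scaled to a common library total of 1e+06 reads. Of 19094 coding genes in the count table, 81 met both thresholds. Genes of 1 stretch of chromosome 4, and genes whose symbols begin with Zscan4, Dux, Usp17l, Tdpoz, Tcstv, Pram, Olfr, Vmn, Pcdh, Hox, Mmp, Cyp2b, Cldn or Gm and a number, were left out beforehand, which removed 12 of the 81 and left 69 of 17641 coding genes. The values that chose the genes are given below as a description, without a test.

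The cells were of the mouse embryonic stem line R1, kept in serum with LIF, and RNA was sequenced in 8 libraries, with 2 replicates for every sampling day. The libraries of D1 and D8 carry the label control, those of D3 and D10 the label ML-792. The inhibitor was given for 48 h from D1 to D3 and again for 48 h between D8 and D10, and the labels give its dose as 2.5 mM, so the D8 cells had already been through 1 exposure. All libraries come from 1 cell line, the time tag of D1 replicate 2 gives day 0 where its title gives D1, and no label says whether the replicates were separate cultures. P-values therefore measure only the spread between these samples, which may be technical.

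SUMO is a small protein that is joined to lysines of other proteins by an enzyme cascade, and ML-792 blocks the E1 enzyme at its head. Among the proteins that carry SUMO are many repressors, histone-modifying enzymes and heterochromatin proteins, and in embryonic stem cells the modification is known for its part in keeping lineage genes, germline genes and transposable elements silent. A gene that is silent in embryonic stem cells is usually one of a specialised tissue, such as a receptor of neurons, an enzyme of liver or a protein of lens.

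Reads in genes numbered 21040992 to 40835518 per library. The noncoding RNA Rn7sk took 3.41% of the reads of D8 replicate 2 and 2.19% to 2.76% of those of the other 7 libraries. Pluripotency genes marked the cells in every library, with a summed level of 6991 to 7677 CPM over 12 genes at D1, 5268 to 5384 at D3, 7481 to 7543 at D8 and 4205 to 4758 at D10. Of these 12, 0 rose and 3 fell at D3, and 0 rose and 8 fell at D10. Of 20 genes of the two-cell-like state, a rare state that resembles the early embryo, 19 were tested and all 19 rose in both exposures, from summed levels of 62.5 to 102 CPM at D1 to 2548 and 833 at D3, and from 9.79 to 17.9 at D8 to 567 and 629 at D10. Rose and fell mean an adjusted p under 0.05 in edgeR's quasi-likelihood test over 19173 genes, where 7.92% of the genes rose and 5.1% fell at D3 against D1, and 9.27% rose and 7.65% fell at D10 against D8. Without D1 replicate 1 the calls at D3 were 342 higher and 357 lower, against 1518 and 978 with all libraries.

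The 69 genes moved from a few reads to many. In the control libraries a gene of the set had 0 to 16 reads, and no gene had more than 48 reads over all 4. In the ML-792 libraries it had at least 25 reads, with 505 the most. The summed level of the set went from 15.5 and 15.1 CPM at D1 to 177 and 164 at D3, and from 12.7 and 14.3 at D8 to 174 and 182 at D10. The median of the group means was 0.21 CPM at D1, 2.02 at D3, 0.17 at D8 and 1.86 at D10.

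Most of the genes stayed low in absolute terms after they came on. Over the 4 ML-792 libraries 4 genes had a mean of at least 5 CPM, 29 had 2 to 5 CPM and 36 had under 2 CPM. The fold of the pooled reads had a median of 10.1 at D3 over D1, with 35 of the 69 genes at 10-fold or more, and a median of 13.2 at D10 over D8, with 40 genes at 10-fold or more. The smallest fold was that of Art3, an ADP-ribosyltransferase family gene, at 3.23 in the first exposure (95% exact counting interval 2.04 to 5.30) and 3.44 in the second (2.10 to 5.88). Such intervals cover counting error only. The lowest ML-792 library was 5.05 times the highest control library in the median gene, and 10 times or more in 12 genes.

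**Figure D1:**
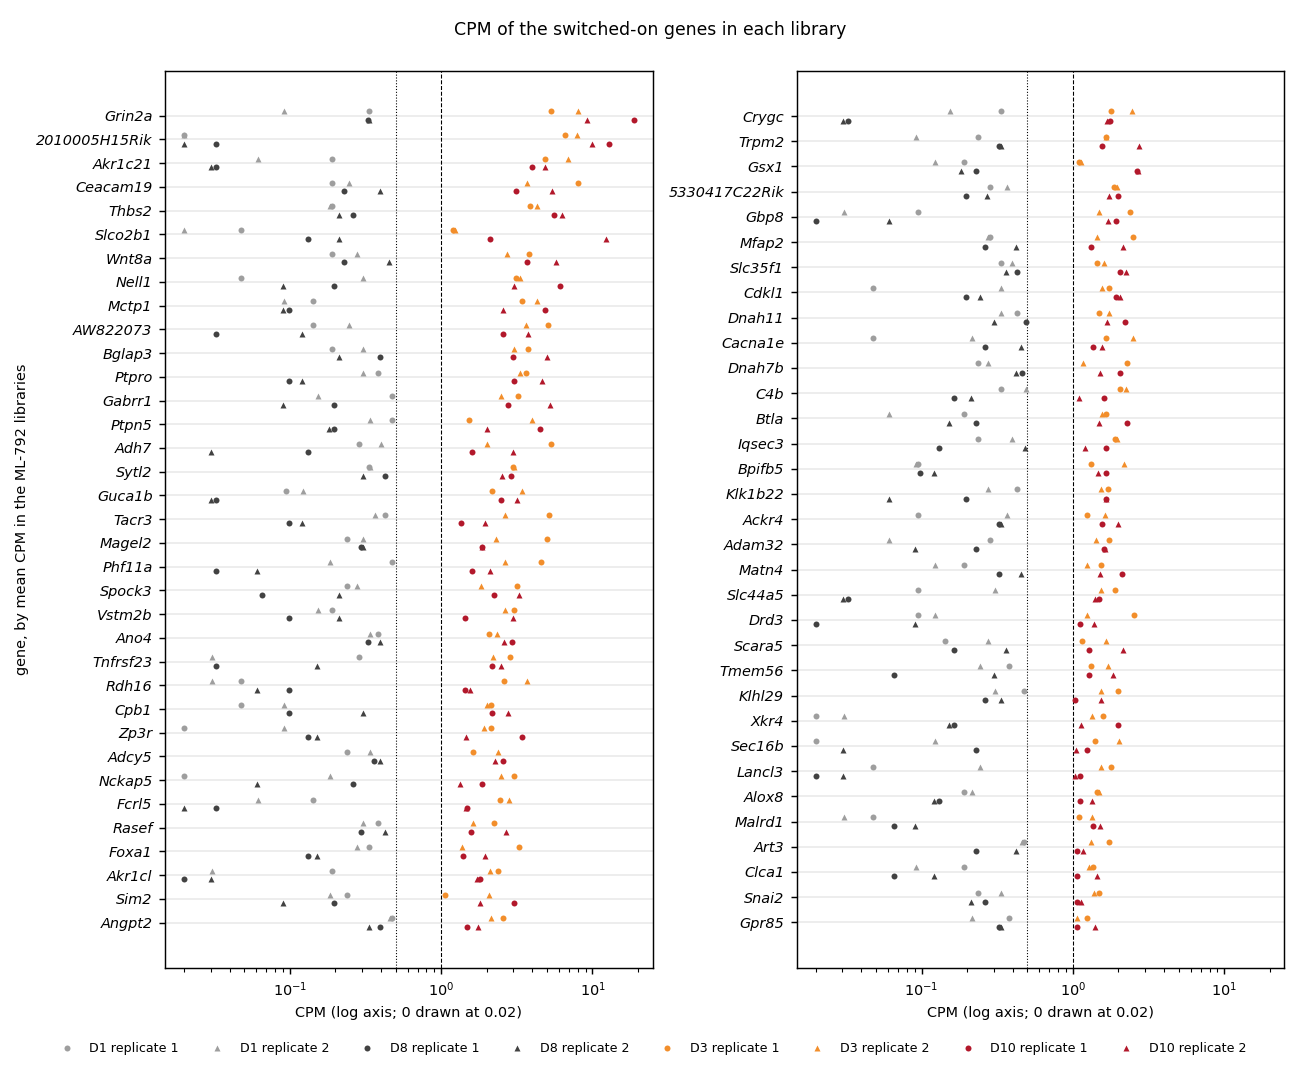
CPM of the genes of the set, without 1 that is not reported here (rows, ordered by mean level in the ML-792 libraries) in the 8 libraries on a log axis, with circles for replicate 1 and triangles for replicate 2; dotted and dashed lines mark 0.5 and 1 CPM. All grey control points lie left of 0.5 and all coloured ML-792 points lie right of 1, as the selection requires, and the width of the gap differs from gene to gene.

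Counts grow with transcript length, so levels are compared between genes per kilobase of exon. On that scale 2010005H15Rik stood first at 14.6 CPM per kb (mean of the 4 ML-792 libraries), before Akr1c21 at 3.43, Crygc at 2.45, Wnt8a at 2.29 and Phf11a at 2.02. Cacna1e, the pore subunit of a calcium channel with a long transcript, stood last at 0.07 CPM per kb. The thresholds themselves were in CPM and not per length. The 69 genes had a median exon length of 4083 bases against 2429 in 3471 coding genes that were under 0.5 CPM in all 8 libraries, and a median span in the genome of 52.9 kb against 13.9 kb.

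The promoters of the set were compared with those of silent and of active genes. The RefSeq promoter table (build GRCm38.p6, 250 bases before to 50 bases after the annotated start) held 50 of the 69 genes. The ratio of observed to expected CpG, which is high in CpG islands, had a median of 0.39 in these 50, 0.25 in 2613 promoters of coding genes silent in all 8 libraries and 0.79 in 9058 promoters of coding genes with at least 1 CPM in all 8. It was over 0.6 in 11 of the 50 (22%), in 14.7% of the silent genes and in 77.9% of the active ones. The promoters printed here were picked because they show both kinds and carry the motifs described next: those of Thbs2, Slco2b1 and Nell1, the highest genes of the set with an entry and outside gene clusters, and that of Btla for the E-box. Capitals mark every match to the searched motifs on either strand, and each sequence runs 5′ to 3′ along its gene.
Thbs2: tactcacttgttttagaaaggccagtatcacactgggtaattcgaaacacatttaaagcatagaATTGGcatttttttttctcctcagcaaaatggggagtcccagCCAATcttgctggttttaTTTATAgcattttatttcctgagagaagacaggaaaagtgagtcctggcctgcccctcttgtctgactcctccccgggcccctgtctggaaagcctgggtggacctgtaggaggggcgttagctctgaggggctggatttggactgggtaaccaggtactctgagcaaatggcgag
Slco2b1: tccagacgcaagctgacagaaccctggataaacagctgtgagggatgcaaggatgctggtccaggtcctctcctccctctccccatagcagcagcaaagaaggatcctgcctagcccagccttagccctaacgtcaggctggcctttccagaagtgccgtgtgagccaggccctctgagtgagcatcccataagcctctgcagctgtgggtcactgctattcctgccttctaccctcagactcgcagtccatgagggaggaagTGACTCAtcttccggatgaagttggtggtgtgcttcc
Nell1: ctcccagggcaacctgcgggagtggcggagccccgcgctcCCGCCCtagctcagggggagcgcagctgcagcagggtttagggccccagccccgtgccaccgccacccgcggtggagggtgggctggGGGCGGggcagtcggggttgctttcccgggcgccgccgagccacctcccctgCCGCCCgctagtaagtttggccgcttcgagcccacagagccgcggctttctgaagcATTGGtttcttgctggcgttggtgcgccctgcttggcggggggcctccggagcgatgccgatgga
Btla: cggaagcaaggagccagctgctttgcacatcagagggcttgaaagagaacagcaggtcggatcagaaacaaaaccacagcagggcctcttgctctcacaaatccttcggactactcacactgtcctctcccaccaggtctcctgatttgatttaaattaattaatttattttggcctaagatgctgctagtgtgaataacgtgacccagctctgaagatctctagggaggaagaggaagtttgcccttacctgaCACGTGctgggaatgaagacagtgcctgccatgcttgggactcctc

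The Thbs2 window lies on the minus strand at chr17:14694213-14694512, and has a CpG ratio of 0.23, a TATA box and 2 CCAAT boxes. Slco2b1, on the minus strand at chr7:99711291-99711590, has a CpG ratio of 0.21 and a match to the AP-1 site just after the start. Nell1, on the plus strand at chr7:49975100-49975399, is the CpG-rich case, with a ratio of 0.72, 3 GC boxes and 1 CCAAT box, and its RefSeq start lies 486 bases from the start of the GENCODE gene. Btla, on the plus strand at chr16:45224087-45224386, has a ratio of 0.28 and the E-box bound by Mga, Max and Myc.

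The motifs searched on both strands were the TATA box TATAAA, the CCAAT box CCAAT, the GC box GGGCGG, the E-box CACGTG, the cAMP response element TGACGTCA and the AP-1 site TGANTCA. The TATA box was found in 22% of the 50 promoters, 17.1% of the silent promoters, 6.11% of the active ones and 9.03% of all 13745 coding promoters. The GC box was found in 36%, 23.2%, 68.5% and 56.6%, and the CCAAT box in 36%, 35.4%, 39.5% and 38.1%. The E-box was found in 4%, 5.59%, 10.9% and 9.14%, the AP-1 site in 10%, 10.5%, 4.05% and 5.80%, and the cAMP response element in 0%, 1.22%, 3.47% and 2.77%. For all 6 motifs the share in the set lay nearer to that of genes silent throughout than to that of active genes, and a match or its absence describes only these letters in this window.

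Function groups were assigned by hand from gene names and textbook roles, and they are a description. The largest held 14 genes of receptors, channels and synapses. In this group the median of the gene means was 2.48 CPM at D3 and 2.30 at D10, and the highest control value was 0.48 CPM. Grin2a encodes the GluN2A subunit of the NMDA glutamate receptor and spans chr16:9567898-9995560. It had 0.333 and 0.092 CPM at D1 and 5.35 and 8.01 at D3, then 0.328 and 0.333 at D8 and 18.9 and 9.18 at D10. It was the gene with the highest mean CPM in the set, and its pooled reads were 36.5-fold higher at D3 than at D1 (19.6 to 76.7) and 38.8-fold higher at D10 than at D8 (25.2 to 63.0). Mctp1, a calcium-binding membrane protein, had 0.143 and 0.092 CPM at D1 and 3.44 and 4.29 at D3, then 0.0983 and 0.0908 at D8 and 4.86 and 2.55 at D10. Gabrr1, a rho subunit of ionotropic GABA receptors, had 0.475 and 0.153 CPM at D1 and 3.23 and 2.48 at D3, then 0.197 and 0.0908 at D8 and 2.76 and 5.27 at D10.

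Other neural and sensory genes lay lower in CPM, which is not scaled to transcript length. Per kb of exon the order differed, with 1.15 CPM for Guca1b, 0.58 for Grin2a and 0.52 for Ptpn5. Ptpn5, a tyrosine phosphatase of striatum, had 0.475 and 0.337 CPM at D1 and 1.53 and 3.97 at D3, then 0.197 and 0.182 at D8 and 4.53 and 2.01 at D10, and its replicates lay wide apart in both exposures. Guca1b, an activator of photoreceptor guanylate cyclase, had 0.0951 and 0.123 CPM at D1 and 2.165 and 3.44 at D3, then 0.0328 and 0.0303 at D8 and 2.47 and 3.16 at D10. Tacr3 (neurokinin B receptor), Drd3 (dopamine receptor), Cacna1e, Trpm2 (calcium-permeable channel), Ano4, Iqsec3 (exchange factor of inhibitory synapses), Adcy5 (adenylyl cyclase), Gpr85 and Vstm2b made up the rest, and the means of the whole group ran from 1.15 to 6.68 CPM at D3 and from 1.23 to 14.0 at D10. Of 24 markers of neurons 18 were tested, 2 rose and 2 fell at D3, and 2 rose and 3 fell at D10, with summed levels of 371 to 396 CPM at D1, 363 to 384 at D3, 368 to 373 at D8 and 313 at D10.

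Matrix proteins and secreted ligands formed a group of 8, with a median of 2.87 CPM at D3 and 3.37 at D10. Thbs2, a thrombospondin of the extracellular matrix, had 0.19 and 0.184 CPM at D1 and 3.86 and 4.29 at D3, then 0.262 and 0.212 at D8 and 5.56 and 6.27 at D10. Its 4 ML-792 values lay close together and the D10 pair lay above the D3 pair. Wnt8a, a WNT ligand of the early embryo, had 0.19 and 0.276 CPM at D1 and 3.78 and 2.73 at D3, then 0.229 and 0.454 at D8 and 3.71 and 5.78 at D10. Nell1, a secreted protein of bone and neural tissue with EGF repeats, had 0.0475 and 0.307 CPM at D1 and 3.14 and 3.3 at D3, then 0.197 and 0.0908 at D8 and 6.05 and 3.04 at D10.

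Bglap3, related to osteocalcin of bone, had 0.19 and 0.307 CPM at D1 and 3.74 and 3.05 at D3, then 0.393 and 0.212 at D8 and 2.97 and 5 at D10. Its neighbours Bglap and Bglap2, which encode osteocalcin and lie 11.7 and 5.96 kb away, stayed at 0 to 0.142 CPM in all 8 libraries. Angpt2 (a ligand of the Tie2 receptor), Spock3 (a proteoglycan), Mfap2 (a microfibril protein) and Matn4 (a matrilin) complete the group, whose means ran from 1.38 to 4.08 CPM at D3 and from 1.61 to 5.91 at D10. Beside it, 9 of 15 fibroblast markers were tested, 2 rose and 0 fell at D3, and 1 rose and 1 fell at D10. Their summed level was 41.6 to 45.1 CPM at D1, 62.6 to 71.2 at D3, 56.6 to 72.6 at D8 and 73.0 to 105 at D10, and its part in the matrix genes was not tested.

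Enzymes of small molecules numbered 7, and 4 of them handle alcohols, aldehydes, retinol or steroids. Akr1c21, an aldo-keto reductase acting on steroids, had 0.19 and 0.0613 CPM at D1 and 4.84 and 6.91 at D3, then 0.0328 and 0.0303 at D8 and 3.99 and 4.85 at D10. Its pooled reads were 53.4-fold higher in the first exposure (24.2 to 147) and 144-fold higher in the second (39.5 to 1194). Adh7, an alcohol dehydrogenase that also oxidises retinol, had 0.285 and 0.399 CPM at D1 and 5.31 and 2.02 at D3, then 0.131 and 0.0303 at D8 and 1.61 and 2.99 at D10. Rdh16, a retinol dehydrogenase, had 0.0475 and 0.0307 CPM at D1 and 2.59 and 3.69 at D3, then 0.0983 and 0.0605 at D8 and 1.44 and 1.54 at D10.

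Akr1cl, the fourth of these, is described with its neighbours below. These 4 genes were 17.4% of 23 alcohol, aldehyde and retinol dehydrogenases and aldo-keto reductases that were silent in all 4 controls. Of all 4174 silent coding genes 1.65% entered the set. The gene lists were chosen with earlier results of these data known, so this share is a description. Alox8, a lipoxygenase, and Art3 also belong to the enzymes. In 5 of the 7 enzymes both D3 libraries lay above both D10 libraries, an order found in 15.3% of all tested genes, and in 0 the reverse held. The group median was 3.07 CPM at D3 and 1.76 at D10. Of the liver markers 8 were tested, of which 1 rose and 1 fell at D3 and 2 rose and 0 fell at D10. Foxa1, the only liver marker in the set, was the 1 that rose at D3 and 1 of the 2 at D10. Its rise followed from the selection. The summed level of the liver markers was 12.5 to 16.1 CPM at D3 and 12.7 to 14.0 at D10, against 10.7 to 19.8 over the controls.

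Immune and defence genes numbered 9, with a median of 2.14 CPM at D3 and 1.82 at D10. Ceacam19, a cell adhesion molecule of the carcinoembryonic antigen family, had 0.19 and 0.245 CPM at D1 and 7.98 and 3.69 at D3, then 0.229 and 0.394 at D8 and 3.13 and 5.41 at D10. Phf11a, of a PHD finger family, had 0.475 and 0.184 CPM at D1 and 4.54 and 2.66 at D3, then 0.0328 and 0.0605 at D8 and 1.61 and 2.11 at D10. Tnfrsf23, a decoy receptor for the death ligand TRAIL, had 0.285 and 0.0307 CPM at D1 and 2.84 and 2.2 at D3, then 0.0328 and 0.151 at D8 and 2.18 and 2.5 at D10. Fcrl5 (an Fc receptor-like protein of B cells), Btla (an inhibitory receptor of lymphocytes), Ackr4 (an atypical chemokine receptor), C4b (complement), Gbp8 (a guanylate-binding protein) and Bpifb5 were the rest, and the group means ran from 1.43 to 5.83 CPM at D3 and from 1.35 to 4.27 at D10. Of 12 blood and immune markers tested 1 rose at D3 and 0 at D10, and 0 fell in either, with summed levels of 169 to 188 CPM in the controls, 187 to 194 at D3 and 147.6 to 213 at D10.

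Proteases and inhibitors were 4 genes, led by the gene with the largest folds of the set. 2010005H15Rik belongs to the cluster of stefin A cysteine protease inhibitors at chr16:36221468-36257444. It had 0 and 0 CPM at D1 and 6.62 and 7.9 at D3, then 0.0328 and 0 at D8 and 12.8 and 9.94 at D10. With 0 reads at D1 its rise was at least 131-fold, set against a floor of 3 reads over the group, and with 1 read at D8 the second ratio was 699-fold (125 to 2.76e+04). Cpb1, the pancreatic carboxypeptidase B, had 0.0475 and 0.092 CPM at D1 and 2.12 and 2.02 at D3, then 0.0983 and 0.303 at D8 and 2.18 and 2.77 at D10. Klk1b22, a kallikrein, had 0.428 and 0.276 CPM at D1 and 1.7 and 1.52 at D3, then 0.197 and 0.0605 at D8 and 1.65 and 1.67 at D10, and Adam32, a metalloprotease family gene of testis, closed the group.

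Membrane transport held 6 genes and the least even one. Slco2b1, a transporter of organic anions, had 0.0475 and 0 CPM at D1 and 1.19 and 1.24 at D3, then 0.131 and 0.212 at D8 and 2.1 and 12.4 at D10. That last value stands far above the other 3 ML-792 libraries. Slc35f1, a solute carrier, had 0.333 and 0.399 CPM at D1 and 1.44 and 1.59 at D3, then 0.426 and 0.363 at D8 and 2.06 and 2.23 at D10. Slc44a5, of the choline transporter-like family, had 0.0951 and 0.307 CPM at D1 and 1.91 and 1.52 at D3, then 0.0328 and 0.0303 at D8 and 1.48 and 1.4 at D10. Scara5 (a ferritin receptor), Xkr4 and Clca1 were the others, and the medians of the group were 1.43 CPM at D3 and 1.63 at D10.

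Nuclear regulators were 5 genes, 4 of them transcription factors of developing tissues. Magel2, an imprinted gene of the MAGE family, had 0.238 and 0.307 CPM at D1 and 4.97 and 2.3 at D3, then 0.295 and 0.303 at D8 and 1.85 and 1.86 at D10. Foxa1, the forkhead factor that opens chromatin in endoderm, had 0.333 and 0.276 CPM at D1 and 3.27 and 1.38 at D3, then 0.131 and 0.151 at D8 and 1.4 and 1.96 at D10. Sim2, a bHLH-PAS factor of the nervous system, had 0.238 and 0.184 CPM at D1 and 1.06 and 2.06 at D3, then 0.197 and 0.0908 at D8 and 3.01 and 1.81 at D10. Gsx1, a homeobox factor of neural progenitors, is given with the comparison of the exposures, and Snai2, a repressor of epithelial genes, was the fifth. The group medians were 1.56 CPM at D3 and 1.86 at D10.

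Cytoskeleton and traffic genes numbered 8, with medians of 1.75 CPM at D3 and 1.87 at D10. Sytl2, an effector of the vesicle protein Rab27, had 0.333 and 0.337 CPM at D1 and 2.97 and 3.01 at D3, then 0.426 and 0.303 at D8 and 2.88 and 2.52 at D10. Nckap5, a microtubule-associated protein, had 0 and 0.184 CPM at D1 and 3.01 and 2.48 at D3, then 0.262 and 0.0605 at D8 and 1.85 and 1.32 at D10. Rasef, a Rab family GTPase, had 0.38 and 0.307 CPM at D1 and 2.25 and 1.63 at D3, then 0.295 and 0.424 at D8 and 1.56 and 2.67 at D10. Dnah11 and Dnah7b (motor chains of cilia), Sec16b (exit sites of the endoplasmic reticulum), Cdkl1 (a kinase) and Klhl29 were the rest.

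The last 8 genes share no role. Ptpro, a receptor phosphatase of podocytes and neurons, had 0.38 and 0.307 CPM at D1 and 3.65 and 3.3 at D3, then 0.0983 and 0.121 at D8 and 3.01 and 4.6 at D10. Zp3r, a protein of the sperm acrosome, had 0 and 0.092 CPM at D1 and 2.12 and 1.91 at D3, then 0.131 and 0.151 at D8 and 3.42 and 1.47 at D10. AW822073, an uncharacterised gene with 1 exon, had 0.143 and 0.245 CPM at D1 and 5.05 and 3.62 at D3, then 0.0328 and 0.121 at D8 and 2.55 and 3.75 at D10. It lies at chr10:58222972-58224930 (mm10), 5.05 kb from Duxf3, the factor that opens the two-cell programme and one of the genes left out by name. Duxf3 had 0.285 and 0.46 CPM at D1 and 7.47 and 3.62 at D3, then 0.0983 and 0.0908 at D8 and 2.27 and 3.58 at D10, so both genes were highest in D3 replicate 1. This neighbour was singled out after its position was seen. Crygc, 5330417C22Rik, Tmem56, Lancl3 and Malrd1 complete the list.

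**Figure D2:**
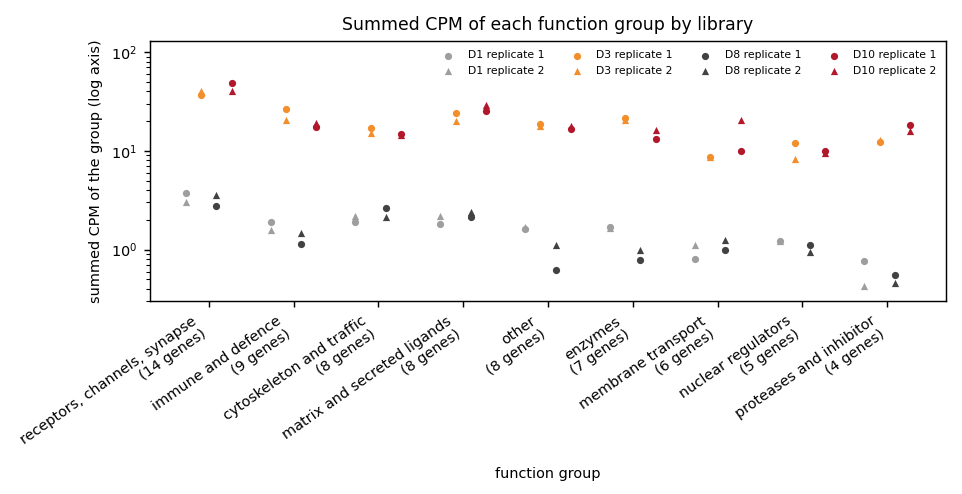
Summed CPM of the genes of each function group (log axis) in the 8 libraries, with circles for replicate 1 and triangles for replicate 2. Each group's ML-792 points lie above its control points, as the selection requires, and the widest step between replicates at D10 is that of membrane transport, at 9.97 and 20.7 CPM.

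The set was also counted by symbol family, beside the 1.65% of all silent coding genes that entered it. Among genes silent in all 4 controls, 0 of 56 cytochromes P450 outside the Cyp2b family, which was left out by name, 0 of 37 keratins, 0 of 70 chemokines and interleukins, 0 of 63 Ly6 and Cd antigens, 0 of 38 testis genes and 0 of 26 serpins entered the set. In families of this size that share comes to about 1 gene or fewer, so nothing is read from the counts of 0. Neurotransmitter receptor subunits gave 3 of 63 (4.76%), solute carriers 3 of 120 (2.5%) and ion channels 2 of 76 (2.63%). Of the remaining marker lists, muscle had 11 tested, 0 rose and 2 fell at D3, and 2 rose and 2 fell at D10. Epidermal markers had 9 tested, 1 rose and 1 fell at D3, and 2 rose and 2 fell at D10. Germline markers had 31 tested, 7 rose and 2 fell at D3, and 8 rose and 2 fell at D10.

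The difference between D10 and D3 was not itself a criterion, but the set was limited to genes with at least 1 CPM in both. Of the genes silent in all controls, 101 were on at D3 and 99 at D10, and the 69 in both form the set, so the likeness of D3 and D10 within it is fixed in part by the selection and the counts below are a description. No gene of the 69 differed between D10 and D3 at an adjusted p under 0.05 in edgeR's quasi-likelihood test, which called 0 of 19173 genes (0%) in this comparison. At an unadjusted p under 0.05 stood 8 of the 69, against 5.6% of all genes. DESeq2 called 73 genes and 0 of the set. With the replicate numbers as a block edgeR called 28 genes, again with 0 of the set. Without a filter on low counts it called 373 genes, 1 of them in the set (Slco2b1, log2 fold change 2.60, adjusted p 3.5e-08).

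The median log2 fold change of the set between D10 and D3 was -0.06, against 0.00 over all genes. Without regard to sign the median was 0.36 in the set and 0.15 in all coding genes tested, which were not matched for level. Means at D3 and D10 lay within 1.5-fold of each other in 54 of the 69 genes and over 2-fold apart in 5, and no share over all genes is given for these counts. Both D10 libraries lay above both D3 libraries in 10 genes (14.5%), where 18.9% of all tested genes had that order. Both D3 libraries lay above both D10 libraries in 20 genes (29.0%), where 15.3% of all tested genes had that order, and in 39 genes the libraries overlapped. The replicates themselves differed by a median of 0.30 (absolute log2 ratio) at D3 and 0.38 at D10 in the set. The same medians were 0.24 and 0.33 in 2534 coding genes that had at least 1 CPM in all 8 libraries. Their ML-792 means lay below the highest of the set, but they were not otherwise matched for level, so the spreads are not compared.

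The 5 genes that lay over 2-fold apart went in both directions. Slco2b1 was higher at D10, with a mean of 7.23 ± 7.26 CPM (SD, n = 2) against 1.21 ± 0.0365 at D3, which gave 2.56 ± 0.72 on the log2 scale (SE, edgeR adjusted p 0.69). That value was 0.76 without D10 replicate 2 and 3.34 without D10 replicate 1. Gsx1 had 0.19 and 0.123 CPM at D1 and 1.1 and 1.13 at D3, then 0.229 and 0.182 at D8 and 2.64 and 2.69 at D10. Its replicates agreed closely in both exposures, and the log2 fold change was 1.23 ± 0.32 (SE, adjusted p 0.68 in edgeR). Grin2a was higher at D10 by 1.05 ± 0.41 (log2, SE, adjusted p 0.85 in edgeR), with 6.68 ± 1.88 CPM (SD, n = 2) at D3 and 14.0 ± 6.87 at D10.

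Tacr3 and Rdh16 went the other way. Tacr3 had 0.428 and 0.368 CPM at D1 and 5.18 and 2.66 at D3, then 0.0983 and 0.121 at D8 and 1.36 and 1.93 at D10, which gave -1.25 ± 0.39 for D10 against D3 (log2, SE, edgeR adjusted p 0.71). Its controls were also lower at D8 than at D1. Rdh16 changed by -1.08 ± 0.32 (log2, SE, adjusted p 0.71 in edgeR), with 3.14 ± 0.775 CPM at D3 (SD, n = 2) and 1.49 ± 0.0717 at D10. The test of the difference between both responses, each against its own control, called 0 of 19173 genes (0%) in edgeR and 0 of the 69. In that test 5 of the 69 stood at an unadjusted p under 0.05, against 3.0% of all genes, and DESeq2 called 3 genes and 0 of the set.

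**Figure D3:**
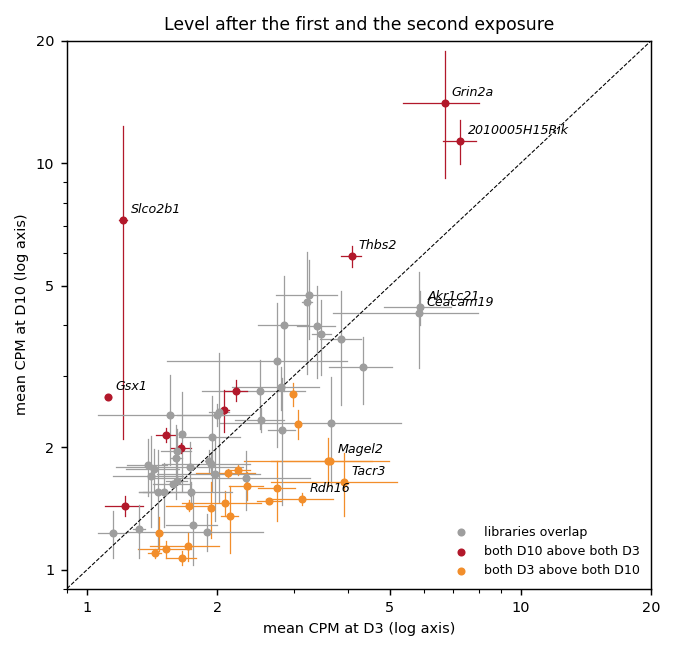
Mean CPM at D3 against mean CPM at D10 for the 69 genes on log axes, with lines from the lower to the higher replicate and a dashed line of equal level. In 39 genes the libraries of D3 and D10 overlap (grey), in 10 both D10 libraries are higher and in 20 both D3 libraries are higher, and Slco2b1 and Gsx1 lie farthest above the line.

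Between the exposures the genes returned to silence by D8, which the thresholds required of the set, so the return was looked at in a wider group chosen on the first exposure alone. Of 149 coding genes under 0.5 CPM in both D1 libraries and at least 1 CPM in both D3 libraries, 101 (67.8%) were under 0.5 CPM in both D8 libraries and 1, the adenosine receptor gene Adora1, had at least 1 CPM in both. The other 47 lay between. At D10, 111 of the 149 (74.5%) had at least 1 CPM in both libraries. Of the 101 genes that had fallen silent again, 69 came on again at D10 and form the set, 32 lay between the thresholds and 0 were under 0.5 CPM in both D10 libraries. Conversely, of 99 genes silent in all controls and on at D10, 2 were under 0.5 CPM in both D3 libraries, Cdh8 (a cadherin) and Wnt16 (a WNT ligand).

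Within the set, where all control values were held under 0.5 CPM by the selection, the D8 mean was above the D1 mean in 33 genes and below it in 36. The opposite pattern to that of the set was rare. Of 11688 coding genes with at least 1 CPM in all 4 controls, 7 (0.06%) were under 0.5 CPM in all 4 ML-792 libraries, among them Traf1, an adaptor of tumour necrosis factor receptors, and Nkx6-3, a homeobox gene. A gene far above 1 CPM must fall by a larger factor to get there, so this share is not set against that of the set. Falls of any size were called in 5.1% of all tested genes at D3 and 7.65% at D10.

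The edge of the set was gradual. Just inside the control threshold lay Dnah11 and C4b, each with a highest control value of 0.49 CPM, and Iqsec3 with 0.48. Just outside lay En1 with 0.51, and Diras2 and Apol7b with 0.52 each. Just inside the ML-792 threshold lay Lancl3 and Klhl29, each with a lowest ML-792 value of 1.03 CPM, and Sec16b with 1.05, and just outside lay Cyp1b1 with 0.98, Prodh2 with 0.95 and Aoc1 with 0.93. With thresholds of 0.25 and 2 CPM the set held 5 genes, and with 1 CPM for both it held 201.

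The members lay on 18 chromosomes. Chromosomes 3 and 7 held 9 each (13.0% of the set, against 5.97% and 8.0% of the silent coding genes), chromosome 1 held 8 (11.6% against 7.69%) and chromosome 16 held 7 (10.1% against 3.45%), and 2 pairs of members lay within 1 Mb of each other. Coding genes whose start lay within 50 kb of the start of a member, and which were no members and not left out by name, numbered 58 beside 30 members, and 40 of them were tested. At D3 against D1, 6 of the 40 (15%) rose and 2 fell, where 7.92% of all tested genes and 6.71% of the other coding genes rose. At D10 against D8, 8 (20%) rose and 1 fell, where 9.27% and 8.09% rose, and the 6 that rose at D3 rose at D10 too. Of these 6, Akr1e1, Cryge, Crygb, Gbp9 and Tnfrsf22 are of the same gene family as the member beside them, and only Ttc6 is not. Alg14 beside Tmem56 and D630023F18Rik beside Crygc rose at D10 alone, and neither shares a family symbol with that member. Their log2 fold changes were 0.80 ± 0.15 and 1.01 ± 0.27 (SE, adjusted p 0.011 and 0.033 in edgeR). Position and family go together in most of these genes and cannot be told apart in these counts. With the replicate block 11 rose at D3.

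These counts of neighbours turned on single libraries. At D3 the count was 1 when either D1 library was left out, 2 when D3 replicate 1 was and 3 when D3 replicate 2 was. At D10 it was 5 when D8 replicate 2 or D10 replicate 1 was left out, and 4 when D10 replicate 2 was. The background of all genes fell in the same fits. Within 25 kb, 4 and 5 of 14 tested neighbours rose in the first and second exposure, and within 100 kb 17 and 19 of 112.

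The neighbours with the largest rises lay beside Foxa1, Gbp8 and Crygc. Ttc6, a tetratricopeptide repeat gene that starts 17.2 kb from Foxa1, had 0.0951 and 0.153 CPM at D1 and 1.7 and 1.24 at D3, then 0.0328 and 0.0605 at D8 and 0.535 and 1.05 at D10. Its log2 fold change was 3.43 ± 0.56 in the first exposure and 3.91 ± 0.66 in the second (SE, adjusted p 0.0072 and 0.0063 in edgeR), and the first missed the threshold without D3 replicate 1 or either D1 library (adjusted p 0.051 to 0.066). Gbp9, a guanylate-binding protein whose annotated start lies 1 base from that of Gbp8, had 1.19 and 1.69 CPM at D1 and 12.2 and 10.3 at D3, then 0.917 and 0.545 at D8 and 11.2 and 9.28 at D10. Gbp8 had 0.0951 and 0.0307 CPM at D1 and 2.38 and 1.49 at D3, then 0 and 0.0605 at D8 and 1.94 and 1.71 at D10. It rose in the same libraries as Gbp9 but stayed lower in CPM. Its log2 fold changes, 4.95 ± 0.70 and 5.60 ± 0.73 (SE), were larger than those of Gbp9 and rest on 0 to 2 reads per control library. Gbp4, which starts 46 bases from Gbp8 and shares 61 exon bases with it, stayed at 0.382 to 0.741 CPM in all 8 libraries (log2 fold changes -0.24 ± 0.46 and 0.23 ± 0.42 SE, adjusted p 0.78 and 0.75 in edgeR). The log2 fold change of Gbp9 was 2.91 ± 0.31 and 3.74 ± 0.32 (SE, adjusted p 0.002 and 0.00082 in edgeR). Gbp8 and Gbp9 share 60 exon bases on 1 strand, and reads there cannot be told apart by gene.

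The lens crystallins gave the only place where 2 members lay close together. Akr1cl and Crygc start 40.9 kb apart on chromosome 1, at chr1:65012689-65032759 and chr1:65071525-65073689 (mm10). Akr1cl, an aldo-keto reductase-like gene, had 0.19 and 0.0307 CPM at D1 and 2.38 and 2.09 at D3, then 0 and 0.0303 at D8 and 1.81 and 1.71 at D10. Crygc, a gamma-crystallin of the lens, had 0.333 and 0.153 CPM at D1 and 1.78 and 2.45 at D3, then 0.0328 and 0.0303 at D8 and 1.77 and 1.69 at D10. Cryge and Crygb, gamma-crystallin genes outside the set, rose as well and stayed at lower levels.

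Cryge had 0.333 and 0.307 CPM at D1 and 1.4 and 1.35 at D3, then 0.0655 and 0.0605 at D8 and 0.659 and 0.686 at D10, with log2 fold changes of 2.06 ± 0.39 and 3.26 ± 0.50 (SE, adjusted p 0.011 and 0.0045 in edgeR). Without any 1 of the D1 or D3 libraries the first had an adjusted p of 0.058 to 0.11. Crygb, with 1 read in each control library, had 8 and 15 reads at D3 and 5 and 15 at D10, with log2 fold changes of 3.38 ± 0.75 and 3.0 ± 0.76 (SE, adjusted p 0.021 and 0.029 in edgeR). It missed the threshold with DESeq2 (adjusted p 0.095 and 0.13) and without any 1 of its D1 or D3 libraries, and at D10 without any 1 of the 8 libraries. Crygd had 1.36 and 1.10 CPM at D3 against 0.475 and 0.184 at D1 (log2 fold change 1.93 ± 0.61 SE, adjusted p 0.073 in edgeR), and Cryga had 0 to 4 reads per library and was not tested. Plekhm3, a gene on the other side of Akr1cl that is expressed in all libraries, rose from 16.7 and 18.2 CPM at D1 to 36.3 and 40.3 at D3, and from 17.4 and 15.9 at D8 to 36.3 and 30.6 at D10 (log2 fold changes 1.10 ± 0.16 and 0.93 ± 0.16 SE, adjusted p 0.0046 and 0.0065 in edgeR).

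**Figure D4:**
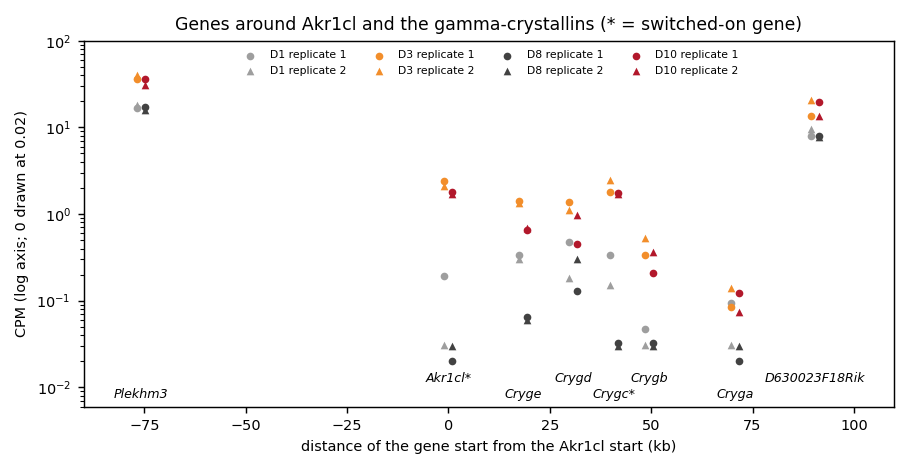
CPM (log axis) of the coding genes around Akr1cl and the gamma-crystallins against the distance of each start from that of Akr1cl, in the 8 libraries; asterisks mark members of the set. The ML-792 points of Akr1cl, Cryge, Crygc and Crygb lie above their control points, those of Crygd and Cryga overlap them, and Plekhm3 and D630023F18Rik are expressed in all libraries.

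Relatives of members in the same gene clusters moved unevenly. Within 500 kb of 19 members lay 71 coding genes with the same symbol stem that were no members, and 49 of them had a mean under 0.5 CPM in the ML-792 libraries. Of the 28 that were tested, 16 had a positive log2 fold change in both exposures, as had 40.2% of all genes tested and 37.6% of the coding genes tested. Dnah7c, a dynein chain near Dnah7b, had 0.618 and 0.613 CPM at D1 and 10.7 and 5.67 at D3, then 0.295 and 0.303 at D8 and 6.01 and 5 at D10, so it missed the set only through its D1 level. Akr1c13, near Akr1c21, had 0.808 and 0.613 CPM at D1 and 2.93 and 5.64 at D3, then 0.229 and 0.817 at D8 and 8.48 and 11.7 at D10, whereas Akr1c6 had at most 1 read in any library. Both relatives were singled out after their values were seen. Reads that match several members of such families could not be assigned with certainty, since the counting of such reads is not given in the sources used here.

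Some members share exon bases with another gene. Ackr4 shares 479 bases (8.9% of its exons) with Acad11, an acyl-CoA dehydrogenase family gene with 608 to 2576 reads per library, and Dnah11 shares 642 bases with Cdca7l, which had 1181 to 2051 reads. Vstm2b shares 222 bases with the antisense gene A230077H06Rik, which itself went from 3 and 6 reads at D1 to 42 and 22 at D3, and from 0 and 1 at D8 to 19 and 50 at D10. The library kit marks strand, but the strand setting of the counting is not given in the sources used here, so the values of these members are less certain. Cdkl1 (20.4% of its exon bases) and Akr1cl (11.7%) overlap genes on the opposite strand that had 0 to 2 and 1 to 12 reads per library, and Akr1cl itself had 4 and 1 reads at D1 where its partner Gm8550 had 5 and 1. Smaller overlaps were found for further members, Slco2b1, Art3, Tnfrsf23 and Rdh16 among them.

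The two-cell-like genes differed between the D3 replicates far more than the set did. Families that supply part of the two-cell-like list, such as Zscan4, Usp17l and Tcstv, had been left out of the set by name. The set also needed at least 1 CPM in both D3 libraries, so the contrast is fixed in part by the selection. At D3 all 20 two-cell-like genes were higher in replicate 1 than in replicate 2, with a median ratio of 2.34 and a ratio of sums of 3.06. In the set 37 of 69 genes were higher in replicate 1, with a median ratio of 1.06 and a ratio of sums of 1.08. At D10, 2 of the 20 two-cell-like genes were higher in replicate 1 (median ratio 0.58), and 27 of the 69 (median ratio 0.92). Among the 69, 11 genes were over 1.5-fold higher in D3 replicate 1, led by Adh7 (2.63-fold), Foxa1 (2.37), Ceacam19 (2.166), Magel2 (2.16) and Drd3 (2.05), and 5 were over 1.5-fold lower. The part of the two-cell-like state in these 11 genes was not tested. In bulk RNA more cells with a gene and more RNA of it per cell cannot be told apart, here and in every level above.

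**Figure D5:**
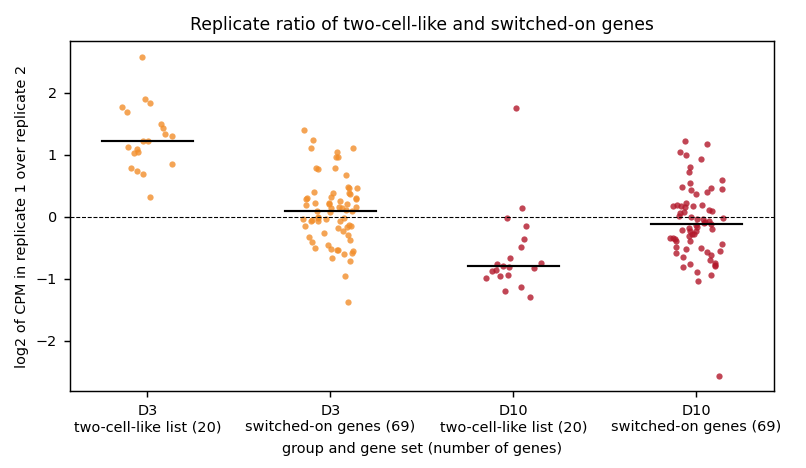
Log2 of the CPM in replicate 1 over that in replicate 2 for each two-cell-like gene (20) and each switched-on gene (69) at D3 and at D10; each point is a gene and the black bar is the median. At D3 the two-cell-like genes all lie above 0 with a median ratio of 2.34, whereas the switched-on genes lie around 0 with a median ratio of 1.06. Several two-cell-like families were left out of the switched-on genes by name.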

How the data were processed

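RNA sequencing libraries of R1 cells were prepared with a stranded total RNA kit, per the labels' protocols. The deposited values are raw counts of reads per Ensembl gene. The submitters' processing notes name bcl2fastq 2.17.1.14, STAR 2.5.0a, featureCounts and the build mm10. The annotation, the strand setting and the treatment of reads with several matches were not given in the sources used here. Symbols, biotypes and coordinates came from GENCODE M21, which held 36901 of 36920 identifiers.

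CPM was computed over column totals. The members, the gene lists and the function groups were chosen with earlier results of these data known. Groups came from the sample titles. Counts of 19173 genes that passed filterByExpr, all 69 members among them, were fitted with edgeR 4.0.16 (R 4.3.3) in 1 quasi-likelihood fit of the 4 groups with TMM scaling and 4 residual degrees of freedom. The biological coefficient of variation was 19.6%. P-values were 2-sided and adjusted by Benjamini-Hochberg over all genes tested, with a threshold of 0.05. Alternatives were RLE size factors, no low-count filter, DESeq2 1.42.0, a replicate block, other thresholds, other distances and leaving out each library. In data simulated for D10 against D3 with 18591 genes, 85% of 4-fold and 27% of 2-fold changes were recovered, and 2.61% of calls were false. The simulation gave genes of every level the same coefficient of variation. Its rates therefore do not carry over to the 69 genes, which had low counts.

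Same-numbered libraries deviated together in every pair of groups (correlations of deviations 0.101 to 0.498). The pairing comes from the replicate numbers in the titles and this check, so the blocked fit is given where it changes a result.

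Folds of pooled reads have 95% exact binomial intervals, and a floor of 3 reads was used for 0. Reads carry no molecular identifiers, so intervals and floors cover counting error only. Named in full were the 12 members highest in CPM, the 3 highest of each function group, those nearest each threshold, and the 3 neighbours with the largest rise in each exposure. Tacr3, Rdh16 and Gsx1 were added for the size of their D10 to D3 difference, and Guca1b and Ptpn5 as further neural members. The values of 1 enzyme gene among the members are not reported here, and it stays in the counts, sums and medians.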

Additional observations from a re-analysis of the deposited data

How the results depend on the processing

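The set held 67 genes with CPM over TMM library sizes, 5 with thresholds of 0.25 and 2 CPM, 201 with 1 CPM for both, and 72 to 87 when 1 library was left out. Leaving out a library, or using 1 CPM for both, only loosens the rule. All 69 genes had to stay in these sets, so that says nothing on stability. Genes called at D3 against D1 numbered 2496, 3847 without the low-count filter, 4187 with the replicate block and 387 to 3238 when 1 library was left out (387 with D1 replicate 2 left out, 699 with D1 replicate 1, 626 with D3 replicate 1 and 1151 with D3 replicate 2). At D10 against D8 they numbered 3244, 5298 with the block and 1420 to 4304 (1420 without D10 replicate 1, 1818 without D8 replicate 2, 2032 without D10 replicate 2). Where a group keeps 1 library, that library is assumed to vary like the other groups. At D10 against D3 they numbered 0, 373 without the filter, 73 with DESeq2, 28 with the block and 0 to 1 with a library left out (1 without D3 replicate 1). For the difference of responses they numbered 0, 66 without the filter and 3 with DESeq2, and 0 in each fit with a library left out. Members called higher at D10 than at D3 numbered 0, and 1 without the filter.

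Neighbours that rose at D3 numbered 6, 11 without the filter, 11 with the replicate block, 17 within 100 kb and 1 to 7 with a library left out. At D10 they numbered 8, 5 within 25 kb, 19 within 100 kb and 4 to 9 with a library left out. The block changed no other call on the members. None of the named genes or counts above turned its direction, but without D1 replicate 1 the falls at D3 (357) outnumbered the rises (342), against 978 and 1518 with all libraries. The cause of these shifts was not tested, except that a fit with a library left out has fewer samples and a wider distance covers more genes. Depth limits the controls most, where a member had 0 to 16 reads per library.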
